A study of Mus musculus with 9 samples.

Results

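The genes described here encode the vacuolar proton pump, the enzymes and membrane proteins of the lysosome, and factors of autophagy. They were chosen by name: every symbol that starts with Atp6v and a digit, and 32 listed lysosome and autophagy genes, with hyphenated names and names ending in "os" left out. These genes and the further lists below were chosen with earlier results of these data known. Their shares set beside those of all genes are therefore descriptions. Of 54 symbols 53 were listed in the files (Map1lc3b is not analysed here), and 46 had at least 1 FPKM in at least 3 of the 9 libraries. FPKM, a fragment number divided by transcript length and by the fragments mapped in a library, is a level that can be compared between genes. The 46 genes are part of 11337 that passed this filter among 25175 listed symbols. By role they comprise 15 proton pump genes, 10 hydrolases, 3 lumenal cofactors, 6 membrane proteins and 12 autophagy factors.

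Messenger RNA was sequenced from HL-1 cells, a permanent mouse line of atrial heart muscle origin. The vehicle group was kept in 0.1% DMSO, the ivermectin group in that drug at 5 µM, and the importazole group in that compound at 10 µM, each for 24 h and each with 3 libraries. The antiparasitic ivermectin also blocks nuclear import through importin α/β, a receptor pair for many nuclear proteins. Importazole is a small molecule that blocks import by importin-β. The doses differ, so the compounds are compared only at these doses. For the compound groups the DMSO content is not given in the labels. All libraries come from 1 cell line, and nothing in the labels says that they came from separate cultures, so each p-value reflects the spread among these libraries alone, and that spread may be technical.

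The lysosome is an acidic compartment in which hydrolases break down proteins, lipids and sugars delivered by endocytosis and autophagy. Its acidity comes from the vacuolar ATPase, whose V1 sector hydrolyses ATP in the cytosol and whose V0 sector carries protons through the membrane. In autophagy, Ulk1 and Becn1 complexes start a membrane that Atg proteins extend, LC3 and GABARAP proteins coat it, and it fuses with lysosomes. In the heart, cardiomyocytes depend on this route to renew mitochondria and proteins, because they divide rarely. Whether HL-1 cells, a permanent line, depend on it likewise was not tested. Many of the genes are targets of the transcription factors TFEB and TFE3, which are held in the cytosol when mTORC1 is active on the lysosome and enter the nucleus when it is not. They bind E-box sequences with the core CACGTG, often extended to TCACGTGA.

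The promoters of the genes were therefore searched for CACGTG and for TCACGTGA, which contains it. Each motif reads the same on both strands. RefSeq windows (GRCm38.p6) from 250 bases before to 50 bases after a gene's start were found for 37 of the 46 genes. CACGTG was in 13 of these 37 (35.1%), against 12.3% of the 8395 tested genes with a window and 8.09% of all 27025 symbols with one. TCACGTGA was in 7 of 37 (18.9%), against 2.38% and 1.12%. By role, TCACGTGA was in 3 of 10 pump genes with a window, 3 of 9 hydrolases and 1 of 5 membrane proteins, and in none of the 3 cofactors or 10 autophagy factors. The stretches around each TCACGTGA match follow, with the motif in capitals, because they show which pump and lysosomal genes carry it. The Lamp1 stretch is shown because it holds CACGTG 4 times, and the Ctsl stretch because Ctsl was among the genes that rose. In these last ones CACGTG is in capitals.
Atp6v0d1, chr8:105566050-105566079, minus strand: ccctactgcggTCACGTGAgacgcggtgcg
Atp6v0e, chr17:26676387-26676416, plus strand: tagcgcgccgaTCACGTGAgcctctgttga
Atp6v1a, chr16:44139373-44139402, minus strand: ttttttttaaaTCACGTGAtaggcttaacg
Ctsa, chr2:164833749-164833778, plus strand: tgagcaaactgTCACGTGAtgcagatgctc
Ctsa, chr2:164833766-164833795, plus strand: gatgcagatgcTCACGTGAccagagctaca
Ctsd, chr7:142387908-142387937, minus strand: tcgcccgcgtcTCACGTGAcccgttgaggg
Gla, chrX:134601215-134601244, minus strand: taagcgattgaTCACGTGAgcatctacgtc
Gla, chrX:134601182-134601211, minus strand: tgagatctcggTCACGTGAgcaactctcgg
Mcoln1, chr8:3500462-3500491, plus strand: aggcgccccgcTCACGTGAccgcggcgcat
Lamp1, chr8:13159091-13159160, plus strand: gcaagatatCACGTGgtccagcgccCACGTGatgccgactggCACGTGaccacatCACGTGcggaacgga
Ctsl, chr13:64370739-64370768, minus strand: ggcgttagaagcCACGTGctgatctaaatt
The stretches of Atp6v0d1, Atp6v1a and Lamp1 hold no base of an annotated exon, that of Ctsl holds 15 such bases, and the others lie within annotated exons. A match is a description of the letters in a window and shows no binding.

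Read numbers could not be recovered from FPKM, so depth is unknown. Summed FPKM was between 365259 and 416748 per library, and 11055 to 11200 genes reached 1 FPKM. Vehicle 2 and ivermectin 3 list an abundant transcript, Yam1, at 0, while it made up 5.86% to 10.4% of the sum in the other libraries. All 7 cardiomyocyte markers (Myh6, Actc1, Nppa, Tnnt2, Actn2, Myl7 and Myl4) passed the filter, with a summed level of 6264 to 7128 FPKM in vehicle, 5204 to 5627 with ivermectin and 5848 to 6328 with importazole. Myh6, Actc1 and Myl7 fell with ivermectin (log2 differences -0.44, -0.23 and -0.29, limma adjusted p = 0.00854, 0.0317 and 0.0449). Myh6 and Actc1 also fell with importazole (-0.37 and -0.43, limma adjusted p = 0.03205 and 0.00146), while Nppa rose (0.62, limma adjusted p = 0.0118). No other cardiomyocyte marker difference from vehicle passed. Macrophages are rich in lysosomes, but 5 of the 7 listed macrophage markers (Csf1r, Ptprc, Lyz2, Cd14 and Mrc1) were under 1 FPKM in all 9 libraries, and the list summed to 1.58 to 2.32 FPKM in vehicle, 1.74 to 2.99 with ivermectin and 2.03 to 2.52 with importazole. Fibroblast markers, of which 2 of 7 passed the filter, summed to 23.5 to 26.5 FPKM in vehicle, 36.5 to 38.5 with ivermectin and 34.1 to 36.8 with importazole. Most of this sum is Ddr2, a collagen receptor, which rose with ivermectin (log2 difference 0.59, limma adjusted p = 7.02e-04) and importazole (0.49, limma adjusted p = 0.00379). Endothelial markers, 2 of 6 past the filter, summed to 10.3 to 11.3, 9.005 to 10.3 and 9.81 to 11.8 FPKM in the same order, with Cdh5, Tek and Vwf under 1 FPKM in all 9 libraries. In bulk RNA, fewer cells of a type and less RNA per cell cannot be told apart. The part of the cardiomyocyte and fibroblast markers in the results on lysosomal genes was not tested.

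In vehicle the 46 genes had a median level of 36.7 FPKM, against 10.1 FPKM for all genes tested. They ran from Gla, α-galactosidase A, at 3.02 ± 0.874 FPKM (SD, n = 3) to the protease gene Ctsd at 287 ± 8.41 FPKM. After Ctsd came Ctsa (261 ± 17.2 FPKM), which encodes a carboxypeptidase that also protects other lysosomal enzymes, and then Lamp1, Grn, Atp6v0c and Map1lc3a. Those last 4 lay within 192 to 219 FPKM, and among them the ranges of neighbours in this order overlapped. All Ctsd values lay above those of Ctsa, and all Ctsa values above those of Lamp1. At the low end stood Npc1 (4.35 ± 1.006 FPKM), a cholesterol exporter, and Atg5 (5.00 ± 0.217 FPKM), needed to attach LC3 to membranes. The regulators Tfeb (10.4 ± 2.94 FPKM) and Tfe3 (8.63 ± 0.732 FPKM) were close to the median of all genes.

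Ivermectin was compared with vehicle to ask which of these transcripts changed when the drug was given. Ctsl and Cd63 rose, the first a cysteine protease gene and the second the gene of a tetraspanin of late endosomes and lysosomes, and the other 44 genes did not pass the test. The test was limma on log2(FPKM + 1), with p-values adjusted over all 11337 genes by the Benjamini-Hochberg method, two-sided. This share of members, 4.35%, stands beside 4.31% of all genes called in either direction, 1.79% called higher and 2.52% called lower. At an unadjusted p under 0.05 there were 11 members higher and 2 lower (28.3%), against 20.7% of all genes (10.5% higher and 10.3% lower). The median log2 difference was 0.04 for the 46 genes and 0.01 for all genes, on the log2(FPKM + 1) scale, which understates changes of low genes. In 11 of 46 genes (23.9%) all 3 ivermectin libraries lay above all 3 vehicle libraries, against 12.4% of all genes, and in 2 (Atp6v0e and Ulk1) they lay below, against 12.2%. Without vehicle 2 and ivermectin 3, 0 of the 46 passed, and groups did not overlap in 13 genes upward (28.3%, against 19.5% of all genes) and 8 downward (17.4%, against 24.7%).

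With importazole, set against the same vehicle libraries, Cd63, Ctsd and Grn, the progranulin gene, rose and the other 43 genes did not pass. The called share was 6.52%, against 2.26% of all genes in either direction, 1.69% called higher and 0.565% called lower. At an unadjusted p under 0.05, 18 members (39.1%) were higher and none lower, against 15.8% of all genes in either direction, 11.3% higher and 4.48% lower. The called genes split into 192 higher and 64 lower, which became 159 and 117 under quantile and 159 and 118 under median-of-ratios scaling. The median log2 difference was 0.15 for the 46 genes and 0.04 for all genes. Groups did not overlap, with importazole higher, in 22 of 46 genes (47.8%), against 16.5% of all genes, and with importazole lower in 1 (Atg7), against 7.07%. The count was 13 (28.3%, against 11.1% of all genes) with quantile-normalized values and 14 with median-of-ratios scaling (30.4%, against 11.5%). Since both comparisons use the 3 vehicle libraries, a low or high vehicle value moves a gene in both. Without vehicle 2 and ivermectin 3, only Cd63 passed, and 23 genes did not overlap upward (50%, against 19.4% of all genes).

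Ivermectin was set directly against importazole in the same fit to all 9 libraries, a difference to which the vehicle values contribute only through the estimate of spread. By limma 0 of the 46 genes passed, against 3.42% of all genes (0.714% higher and 2.71% lower with ivermectin). At an unadjusted p under 0.05 there were 6, all lower with ivermectin (13.0%), against 12.8% of all genes lower, 6.13% higher and 19.0% in either direction, so the members' share was at that of all genes. Over all genes 81 calls were higher and 307 lower with ivermectin, against 191 and 274 under quantile and 161 and 280 under median-of-ratios scaling. The smallest adjusted p was that of Npc2, a carrier of cholesterol in the lysosome (log2 difference -0.28, 95% interval -0.45 to -0.11, limma adjusted p = 0.0746). The median log2 difference was -0.08 for the 46 genes and -0.03 for all genes. In 14 genes (30.4%) all ivermectin libraries lay below all importazole libraries, against 16.1% of all genes (1827). In none did they lie above, against 8.04% of all genes. Under quantile and median-of-ratios scaling they lay above in 4 and 1 (8.7% and 2.17%), against 12.1% and 11.5% of all genes. With quantile-normalized values the count of 14 became 5 (10.9%, against 12% of all genes, 1366). With median-of-ratios scaling it became 7 (15.2%, against 12.5% of all genes, 1420). Without vehicle 2 and ivermectin 3 it was 20 (43.5%, against 25.1% of all genes). The typical 95% interval of a gene's log2 difference reached 0.16 to either side.

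**Figure D1:**
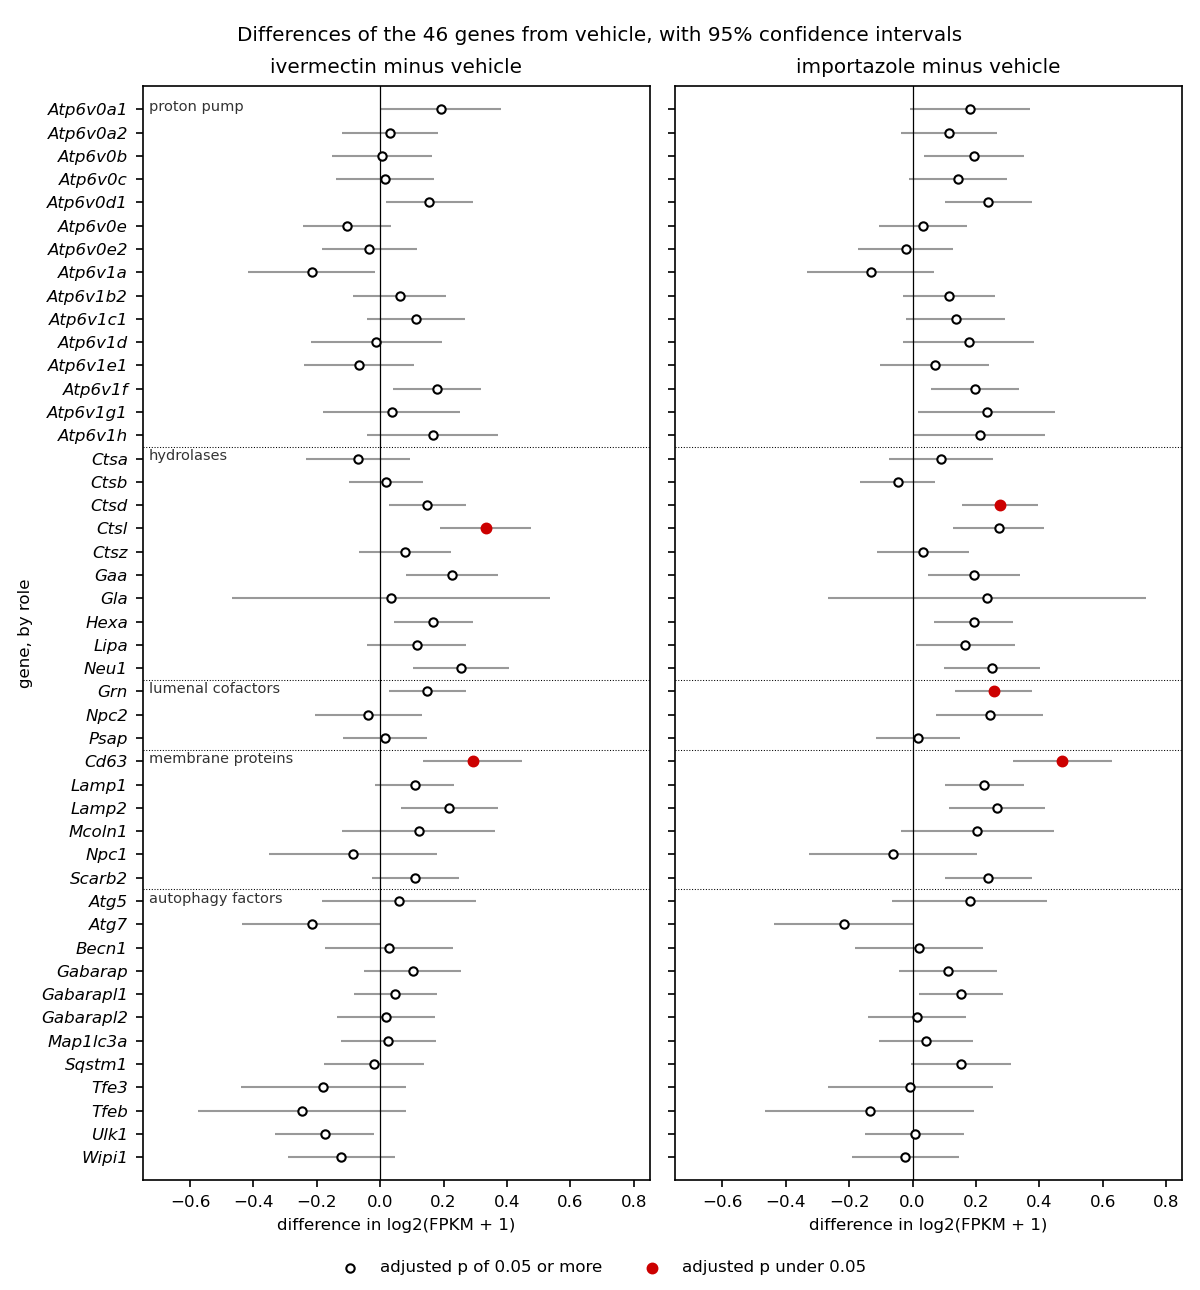
Each point is a gene's difference in log2(FPKM + 1) from vehicle, for ivermectin (left) and importazole (right), with the 95% confidence interval of the limma fit as a line and filled points for an adjusted p under 0.05. Ctsl and Cd63 are filled on the left, and Ctsd, Grn and Cd63 on the right, where most points of the pump, hydrolase and membrane genes lie above 0.

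Of the proton pump genes, 22 were listed and 15 passed the filter. The other 7 were Atp6v0a4, Atp6v0d2, Atp6v1b1, Atp6v1c2, Atp6v1e2, Atp6v1g2 and Atp6v1g3, isoforms known mainly from kidney, bone, testis, brain or other specialised cells. Their mean over the 9 libraries ran from 0.00623 FPKM (Atp6v0d2) to 0.793 FPKM (Atp6v1g2), and Atp6v1g2 alone reached 1 FPKM, in 2 libraries. The isoforms that passed include both Atp6v0a1 and Atp6v0a2, and both Atp6v0e and Atp6v0e2. Between the genes of the a subunit, Atp6v0a1 made up 65.5 ± 1.99% of the sum with Atp6v0a2 in vehicle, 68.0 ± 1.06% with ivermectin and 66.6 ± 0.945% with importazole. Atp6v0e made up 68.2 ± 1.19%, 67.1 ± 1.06% and 69.0 ± 2.35% of its sum with Atp6v0e2. The ranges of the groups overlapped for both shares.

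**Figure D2:**
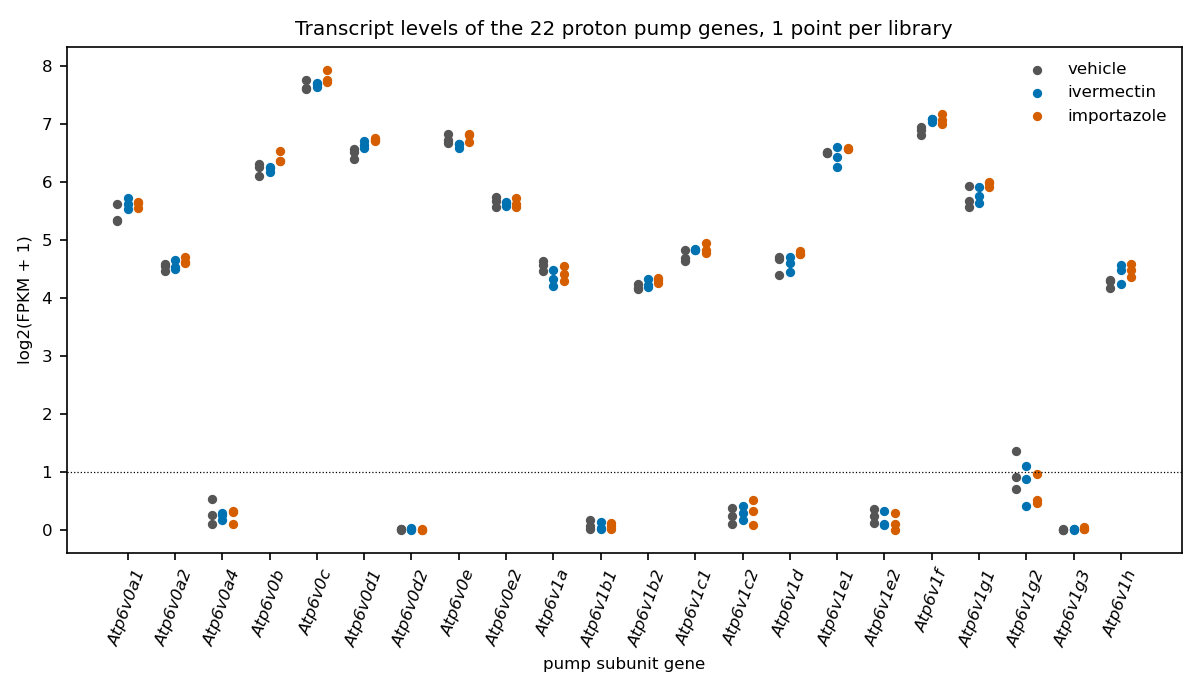
Each point is the log2(FPKM + 1) of a proton pump gene in 1 library, coloured by group, with a dotted line at 1 FPKM. The 15 genes past the filter lie well above the line, and the other 7 lie near or below it in all groups.

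No pump gene passed the test in any comparison, and 4, 5 and 1 of the 15 had an unadjusted p under 0.05 for ivermectin, importazole and the direct comparison. As shares these were 26.7%, 33.3% and 6.67%, against 20.7%, 15.8% and 19.0% of all genes. The highest level was that of Atp6v0c, the proteolipid that forms the rotating ring. It was 192, 195 and 216 FPKM in vehicle, 205, 207 and 197 FPKM with ivermectin, and 215, 242 and 210 FPKM with importazole. Vehicle 3 lay above all ivermectin libraries and above importazole 1 and 3, and the log2 difference was 0.01 for ivermectin (limma adjusted p = 0.929) and 0.14 for importazole (limma adjusted p = 0.354). Pseudogene copies of Atp6v0c that match 465 bases at up to 99.78% could share its reads. Atp6v0d1, which couples the ring to the V1 sector, had the smallest p with importazole. Its level was 93.2, 90.3 and 82.6 FPKM in vehicle, 95.01, 98.4 and 103 FPKM with ivermectin, and 103, 104 and 107 FPKM with importazole. All 6 treated values lay above the vehicle values, with log2 differences of 0.15 (limma adjusted p = 0.190) and 0.24 (limma adjusted p = 0.0835).

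Across the pump the median log2 difference was 0.03 with ivermectin and 0.14 with importazole, against 0.01 and 0.04 for all genes. The importazole median was 0.08 under quantile and 0.10 under median-of-ratios scaling. With importazole 13 of 15 differences were positive (12 after either other scaling), and 61.4% of all genes were positive. In 8 pump genes (53.3%) the groups did not overlap, against 16.5% of all genes. The V0 genes (7, median 0.14) and V1 genes (8, median 0.16) were alike in this. The negative values were those of Atp6v0e2 (-0.02) and Atp6v1a. Atp6v1a, the catalytic subunit, was at 20.9, 23.8 and 22.6 FPKM in vehicle, 17.4, 19.0 and 21.2 FPKM with ivermectin, and 18.6, 22.3 and 20.3 FPKM with importazole. Its groups overlapped in each comparison (log2 differences -0.22 and -0.13, limma adjusted p = 0.212 and 0.523). Summed over the 15 genes, pump transcripts came to 947 ± 13.0 FPKM in vehicle, 972 ± 29.8 FPKM with ivermectin and 1043 ± 24.0 FPKM with importazole.

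Among the hydrolases, Ctsl rose with ivermectin and Ctsd with importazole, and the other members did not pass in these comparisons. Ctsl (cathepsin L, chr13:64359337-64370890, minus strand, in GRCm38) was at 31.4, 32.8 and 30.5 FPKM in vehicle. It was at 40.1, 37.9 and 42.3 FPKM with ivermectin and 37.0, 38.3 and 39.8 FPKM with importazole. Every treated library lay above every vehicle library, while the compounds overlapped. The ratio of means was 1.27 for ivermectin (log2 difference 0.33, SE 0.0648, limma adjusted p = 0.0172) and 1.21 for importazole (0.27, limma adjusted p = 0.0605). The ivermectin call ended without vehicle 1, vehicle 3 or ivermectin 1 (adjusted p = 0.0564, 0.0620 and 0.0510, limma), and leaving out vehicle 2 together with ivermectin 3 gave an adjusted p of 0.0846. It held in 12 of the 19 other settings tried, and ended also with no filter and in a fit to only the 6 libraries compared. Ctsl shares 1742 exon bases with an antisense gene, Gm47123, and 395 with a pseudogene, Gm49230. Short parts of Ctsl, the longest of 191 bases, also match other transcripts at 95% identity or more, and the part of shared reads was not tested. No source used here states whether strand was used in counting, so the level of Ctsl is uncertain.

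Ctsd (cathepsin D, an aspartic protease, chr7:142375911-142388038, minus strand) was the most abundant of the 46 transcripts. It was at 295, 287 and 278 FPKM in vehicle, 308, 314 and 332 FPKM with ivermectin, and 348, 353 and 340 FPKM with importazole. The 3 groups did not overlap, with vehicle lowest and importazole highest. With importazole the ratio of means was 1.21 (log2 difference 0.28, SE 0.0547, limma adjusted p = 0.0269), and with ivermectin 1.11 (0.15, limma adjusted p = 0.156). The importazole call ended without vehicle 2, vehicle 3, ivermectin 2 or any importazole library (limma adjusted p from 0.0513 to 0.119) and with quantile-normalized values (0.0887). It held in 8 of the 19 other settings tried, and ended also with no filter and with the replicate number as a block. The direct difference did not pass (-0.13, limma adjusted p = 0.242). Ctsd shares 808 exon bases with the annotated gene Gm49369 on the same strand.

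Of the other hydrolases, Neu1 (a sialidase), Gaa (acid α-glucosidase, which degrades glycogen) and Hexa (a subunit of β-hexosaminidase) had non-overlapping groups in both comparisons with vehicle, and did not pass. Neu1 was at 22.5, 20.4 and 21.3 FPKM in vehicle, 24.5, 25.1 and 27.7 FPKM with ivermectin, and 25.0, 25.9 and 26.1 FPKM with importazole. Its log2 difference was 0.25 in both, with limma adjusted p = 0.0683 and 0.0996, and the ivermectin difference passed under quantile and under median-of-ratios scaling (smallest limma adjusted p 0.0356). By contrast Ctsb, another cysteine protease, was at 63.6, 64.0 and 64.7 FPKM in vehicle, 63.9, 65.1 and 66.0 FPKM with ivermectin, and 61.9, 64.0 and 60.1 FPKM with importazole. Its 95% interval was -0.10 to 0.14 for ivermectin and -0.16 to 0.07 for importazole, both around 0. Ctsb shares 774 exon bases with Fdft1, a gene of cholesterol synthesis on the opposite strand, which was at 13.4 ± 0.707 FPKM in vehicle, 9.63 ± 0.369 FPKM with ivermectin and 28.3 ± 0.8501 FPKM with importazole. Fdft1 fell with ivermectin (limma adjusted p = 0.00472) and rose with importazole (limma adjusted p = 3.07e-05), and the part of its reads in the level of Ctsb was not tested. Over the 10 hydrolases the median log2 difference was 0.13 with ivermectin and 0.19 with importazole, against 0.01 and 0.04 for all genes. With either compound 9 of the 10 differences were positive (with importazole 7 and 8 under quantile and median-of-ratios scaling). Directly compared, 5 were positive and 5 negative, with a median of -0.01 that became 0.05 and 0.02 under those scalings.

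The lumenal cofactors are Psap, the precursor of saposins that present lipids to hydrolases, Npc2 and Grn, whose product progranulin supports lysosomal enzyme activity. Grn (chr11:102430315-102437048, plus strand) rose with importazole. It was at 216, 215 and 205 FPKM in vehicle, 243, 227 and 237 FPKM with ivermectin, and 250.4, 261 and 249 FPKM with importazole. All 3 groups were separate, with vehicle lowest and importazole highest. The ratio of means was 1.20 for importazole (log2 difference 0.26, SE 0.0550, limma adjusted p = 0.0402) and 1.11 for ivermectin (0.15, limma adjusted p = 0.158). The importazole call ended without any of the vehicle or importazole libraries or ivermectin 2 (limma adjusted p from 0.0601 to 0.153) and under either other scaling (0.162 and 0.0831). It held in 6 of the 19 other settings tried, and ended also with no filter and with the replicate number as a block. A neighbour on the opposite strand, Fam171a2, shares 68 exon bases with Grn and was at 4.79 to 6.64 FPKM.

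Npc2 was at 26.3, 24.6 and 22.8 FPKM in vehicle, 23.2, 24.9 and 23.6 FPKM with ivermectin, and 27.8, 31.8 and 28.3 FPKM with importazole. Importazole lay above both other groups, which overlapped, and the difference from vehicle did not pass (log2 difference 0.24, limma adjusted p = 0.142). Psap was at 143 to 156 FPKM in vehicle, 146 to 158 FPKM with ivermectin and 146 to 156 FPKM with importazole. Its 95% intervals, -0.12 to 0.15 and -0.11 to 0.15, leave room only for small changes on the log2 scale.

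**Figure D3:**
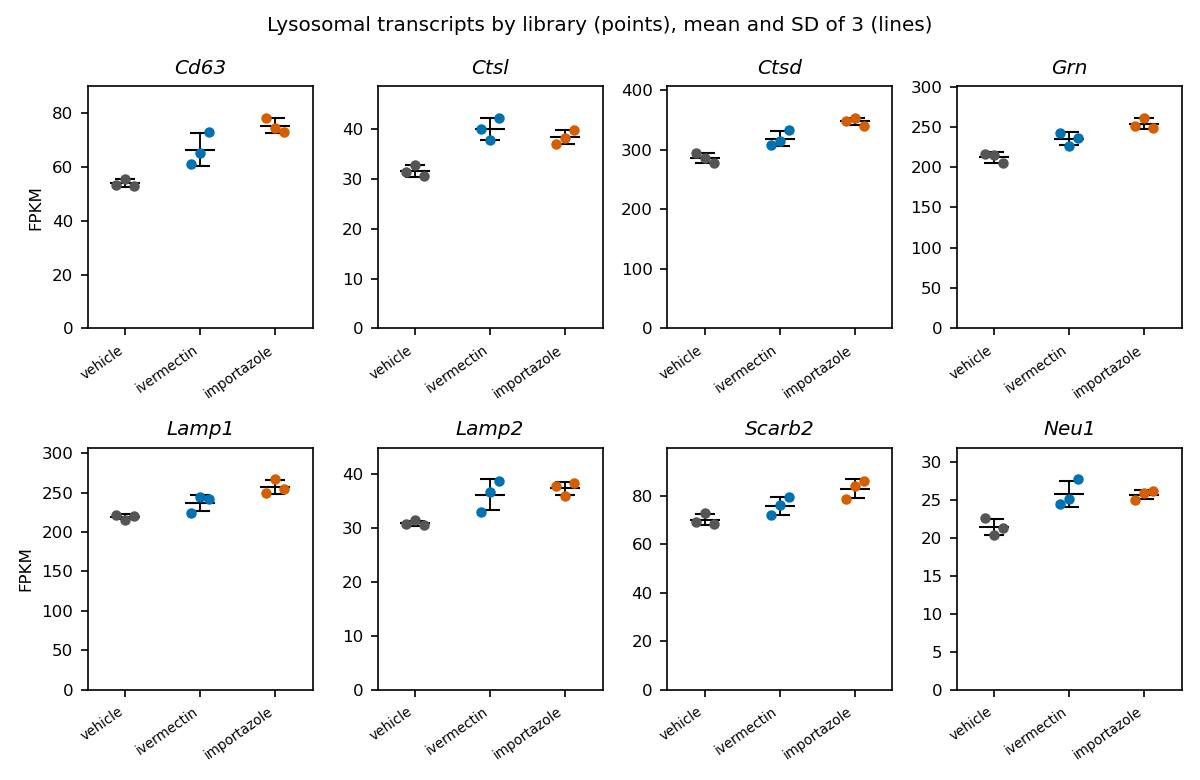
FPKM of 8 lysosomal transcripts in each library (points) with the mean and SD of the 3 libraries of a group (lines), on axes that start at 0. The vehicle points lie below all importazole points in each panel, and below all ivermectin points in every panel but that of Scarb2.

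Cd63 (chr10:128900989-128912822, plus strand) was the gene that rose with both compounds and the member with the largest difference. It was at 53.2, 55.6 and 53.0 FPKM in vehicle, 61.2, 64.9 and 73.1 FPKM with ivermectin, and 78.2, 74.4 and 73.0 FPKM with importazole. Both treated groups lay above vehicle, and ivermectin 3 lay within the importazole values. The ratio of means was 1.23 for ivermectin (log2 difference 0.29, SE 0.0710, limma adjusted p = 0.0449) and 1.39 for importazole (0.47, limma adjusted p = 0.00496). The importazole call held in each of the 19 other settings tried, with limma adjusted p from 0.00157 to 0.0357. The ivermectin call held in 6 of the 19, and of the 9 libraries only ivermectin 1 could be left out without ending it (limma adjusted p without another library from 0.0666 to 0.116). The compounds did not differ past the threshold (-0.18, 95% interval -0.34 to -0.02, limma adjusted p = 0.1999).

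A processed copy of Cd63, Cd63-ps, matches 812 of its bases at 98.52% and has a value of its own in the files, so reads could be assigned to either. It was named after its values were seen. Cd63-ps was at 9.03, 8.83 and 8.85 FPKM in vehicle, 13.1, 12.6 and 16.8 FPKM with ivermectin, and 16.8, 12.4 and 13.2 FPKM with importazole, above vehicle in every treated library. It rose with ivermectin (0.60, limma adjusted p = 0.0203) and with importazole (0.60, limma adjusted p = 0.0324). With both values summed the log2 difference was 0.35 for ivermectin (limma adjusted p = 0.0279) and 0.50 for importazole (limma adjusted p = 0.00545).

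Lamp1, with Lamp2 a main glycoprotein of the lysosomal membrane, was the most abundant membrane member. It was at 222, 215 and 221 FPKM in vehicle, 225, 244 and 241 FPKM with ivermectin, and 249.7, 267 and 254 FPKM with importazole. The 3 groups did not overlap, but ivermectin 1 was only just above the vehicle values, and neither difference passed (0.11 and 0.23, limma adjusted p = 0.308 and 0.0718). Lamp1 shares 249 exon bases with Grtp1 on the opposite strand. Lamp2 was at 30.7, 31.5 and 30.6 FPKM in vehicle, 33.1, 36.7 and 38.9 FPKM with ivermectin, and 37.8, 36.1 and 38.4 FPKM with importazole. Its log2 differences were 0.22 and 0.27 (limma adjusted p = 0.108 and 0.0829). Scarb2, the receptor that carries β-glucocerebrosidase to lysosomes, was at 68.3 to 72.8 FPKM in vehicle, 72.1 to 79.4 FPKM with ivermectin and 78.6 to 86.1 FPKM with importazole (0.11 and 0.24, limma adjusted p = 0.345 and 0.0835).

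Mcoln1, a calcium channel of the lysosome, and Npc1 overlapped between groups in each comparison. Over the 6 membrane proteins the median log2 difference was 0.12 with ivermectin and 0.23 with importazole, against 0.01 and 0.04 for all genes. For each compound 5 of 6 differences were positive, as after both other scalings. The exception was Npc1, a low transcript at 3.52 to 5.47 FPKM in vehicle, 3.76 to 4.17 FPKM with ivermectin and 3.95 to 4.15 FPKM with importazole. Summed over the 6 genes, membrane transcripts came to 402 ± 0.754 FPKM in vehicle, 445 ± 20.5 FPKM with ivermectin and 484 ± 11.6 FPKM with importazole.

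None of the 12 autophagy factors passed in any comparison, and 1, 1 and 2 had an unadjusted p under 0.05 for ivermectin, importazole and the direct comparison. These shares, 8.33%, 8.33% and 16.7%, were below the 20.7%, 15.8% and 19.0% of all genes. Map1lc3a, which encodes an LC3 protein of the autophagosome coat, was the most abundant. It was at 206, 192 and 179 FPKM in vehicle, 188, 193 and 206 FPKM with ivermectin, and 197, 206 and 190.1 FPKM with importazole. The groups overlapped fully, with 95% intervals of -0.12 to 0.18 for ivermectin and -0.11 to 0.19 for importazole. Sqstm1, the receptor p62 that brings cargo to LC3, was at 175, 178 and 161 FPKM in vehicle, 176, 175 and 157 FPKM with ivermectin, and 196, 199 and 177 FPKM with importazole. Importazole 3 lay just under the highest vehicle value, and the log2 difference was 0.15 (limma adjusted p = 0.333).

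Ulk1, the kinase that starts autophagy, was at 22.3, 20.8 and 18.9 FPKM in vehicle, 18.7, 17.8 and 17.9 FPKM with ivermectin, and 20.8, 20.5 and 20.97 FPKM with importazole. Ivermectin lay below both other groups, but the differences did not pass (from vehicle -0.18, limma adjusted p = 0.193, and from importazole -0.18, limma adjusted p = 0.190). Tfeb was at 13.7, 7.96 and 9.53 FPKM in vehicle, 9.01, 8.59 and 7.63 FPKM with ivermectin, and 9.55, 9.04 and 8.84 FPKM with importazole. Vehicle 1 stood above all other libraries, and the interval of the difference was wide (-0.57 to 0.08 for ivermectin and -0.46 to 0.19 for importazole). Tfe3 also overlapped between all groups (-0.18 and -0.01, limma adjusted p = 0.425 and 0.987). These are transcript levels and say nothing of where the TFEB and TFE3 proteins were in the cell. With ivermectin 6 of the 12 differences were positive. With importazole 8 were, a count that was 4 after either other scaling, where the median turned from 0.02 to -0.03. The median of all genes also moved, from 0.04 to -0.0045 under quantile and -0.0011 under median-of-ratios scaling.

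**Figure D4:**
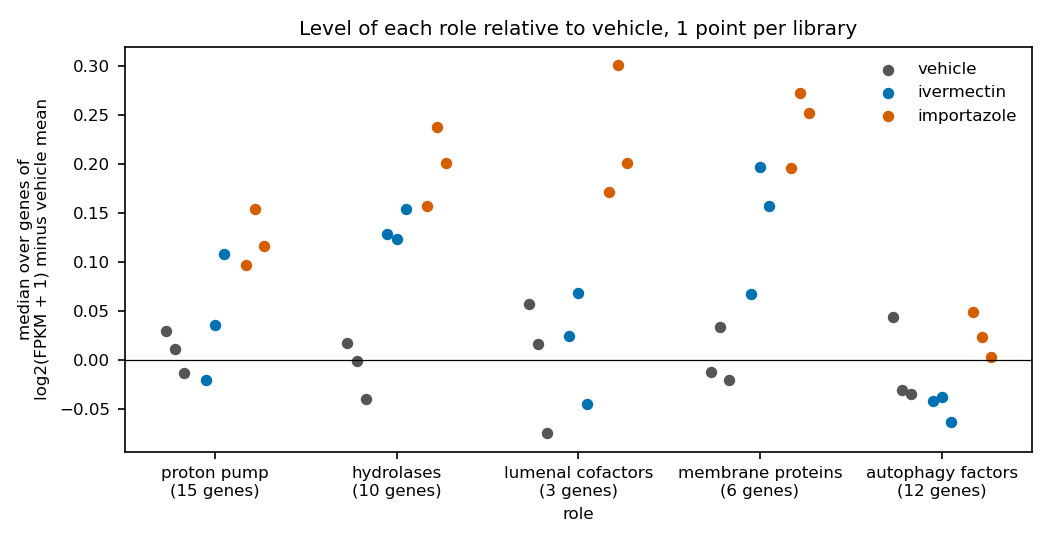
Each point is 1 library: the median, over the genes of a role, of log2(FPKM + 1) minus that gene's vehicle mean. No scaling between libraries was applied. Importazole libraries lie above vehicle for the pump, hydrolases, cofactors and membrane proteins, ivermectin libraries do so for hydrolases and membrane proteins, and the autophagy points lie close to 0 in all groups.

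The plot of role medians by library shows the spread of these small differences. For the pump the library medians were -0.01 to 0.03 in vehicle, -0.02 to 0.11 with ivermectin and 0.10 to 0.15 with importazole, on the log2 scale relative to the vehicle mean. For hydrolases they were -0.04 to 0.02, 0.12 to 0.15 and 0.16 to 0.24, and for membrane proteins -0.02 to 0.03, 0.07 to 0.20 and 0.20 to 0.27. The 3 lumenal cofactors, at -0.07 to 0.06, -0.04 to 0.07 and 0.17 to 0.30, were the most spread in vehicle and with importazole, but not with ivermectin. For autophagy factors they were -0.03 to 0.04, -0.06 to -0.04 and 0.00349 to 0.05. Over all tested genes the median log2(FPKM + 1) was 3.42 to 3.52 in vehicle, 3.45 to 3.50 with ivermectin and 3.51 to 3.53 with importazole. Under quantile and median-of-ratios scaling the median importazole differences were 0.08 and 0.10 for the pump and 0.15 and 0.15 for hydrolases. They were 0.18 and 0.20 for cofactors and 0.18 and 0.19 for membrane proteins. These are descriptions of the libraries, with no test.

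Members with TCACGTGA near the start were compared with those without it. With importazole the median log2 difference was 0.20 for the 7 genes with the motif and 0.17 for the 30 without, and with ivermectin it was 0.04 and 0.05. Ctsd, which holds the motif, rose with importazole, and Ctsl, which holds the core alone, rose with ivermectin. The windows of Cd63 and Grn hold neither. Atp6v1a and Atp6v0e, which hold the motif, had negative differences with ivermectin (-0.22 and -0.11). Such counts say only which letters are in these windows.

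Other gene lists of the same pathways were examined, 141 genes of which 132 were tested. With ivermectin 3 rose and 3 fell, a called share of 4.55% against 4.31% of all genes. With importazole 4 rose and 0 fell, 3.03% against 2.26%, and 1 was lower with ivermectin than with importazole, 0.758% against 3.42%. None of the 11 pump accessory and assembly genes, 22 other lysosomal membrane proteins or 9 genes of sorting to the lysosome passed limma's test in any comparison. The pump list had 2, 3 and 0 genes at an unadjusted p under 0.05 for ivermectin, importazole and the direct comparison, the membrane list 6, 4 and 3, and the sorting list 1, 1 and 2. As shares these were 18.2%, 27.3% and 0% for the pump list, 27.3%, 18.2% and 13.6% for the membrane list and 11.1%, 11.1% and 22.2% for the sorting list, against 20.7%, 15.8% and 19.0% of all genes.

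Of 37 further lysosomal enzymes and cofactors, 1 rose with ivermectin and 1 with importazole, 2.70% in each case, against 4.31% and 2.26% of all genes called. Manba, which cleaves mannose from sugar chains, rose with ivermectin, from 11.8, 11.97 and 12.2 FPKM to 14.3, 15.2 and 15.1 FPKM (log2 difference 0.29, limma adjusted p = 0.0311). With importazole it was at 12.4, 12.2 and 13.0 FPKM, which overlapped with vehicle. The call ended without any vehicle or ivermectin library or importazole 1 (limma adjusted p from 0.0543 to 0.0920). Scpep1, a serine carboxypeptidase, was at 34.6, 31.5 and 32.3 FPKM in vehicle, 36.3, 38.7 and 39.2 FPKM with ivermectin, and 43.3, 44.8 and 45.6 FPKM with importazole. The 3 groups were separate, and the rise with importazole passed (0.43, limma adjusted p = 0.00413), as in each of the other settings.

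**Figure D5:**
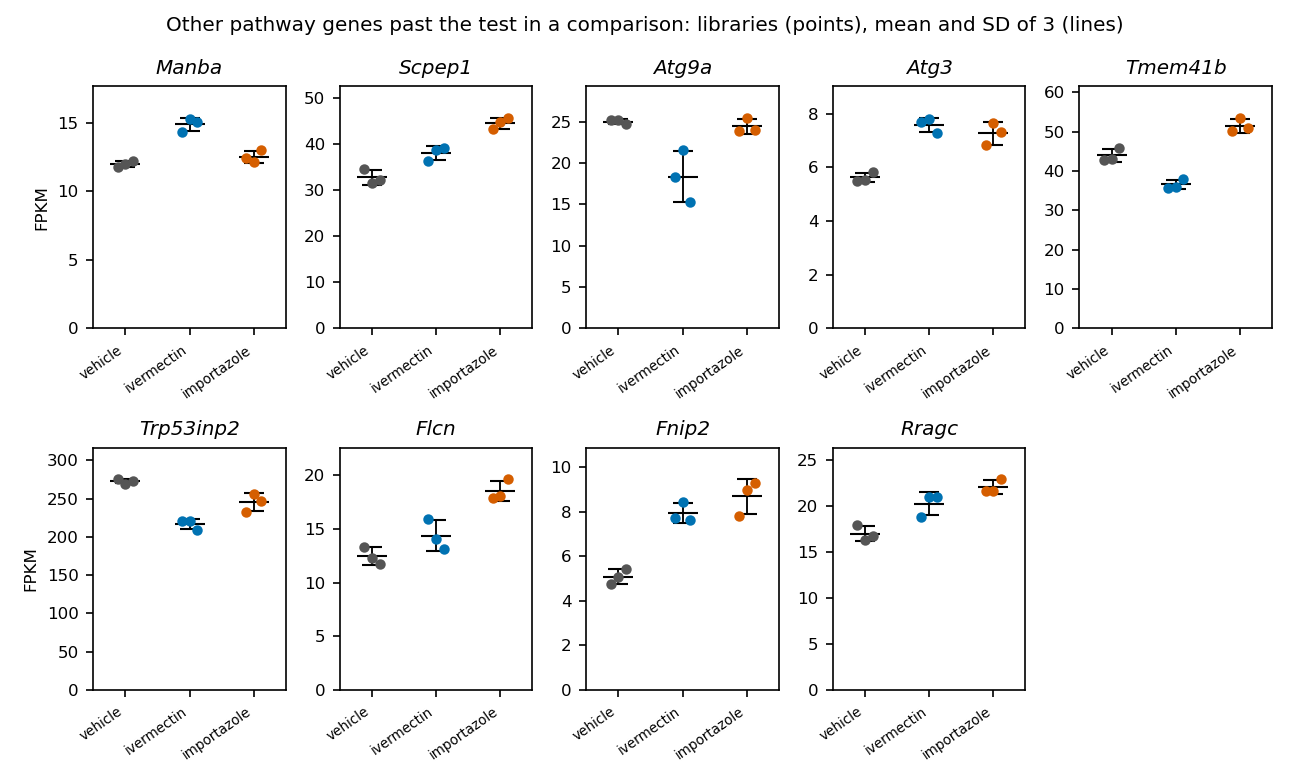
FPKM of the 9 other pathway genes that passed the test in a comparison, by library (points), with the mean and SD of the 3 libraries of a group (lines), on axes that start at 0. The Scpep1, Fnip2 and Rragc panels are among those that show both treated groups above vehicle, and the Tmem41b panel shows ivermectin below and importazole above it.

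Among 40 other autophagy factors, 1 rose and 3 fell with ivermectin (10.0%, against 4.31% of all genes called). With importazole 0 passed limma's test, and 6 had an unadjusted p under 0.05 (15.0%, against 15.8% of all genes). Directly compared, 1 was lower with ivermectin than with importazole (2.5%, against 3.42%). Tmem41b, a lipid scramblase of the endoplasmic reticulum that autophagosomes need, was at 42.9, 43.1 and 45.9 FPKM in vehicle, 35.8, 36.0 and 38.0 FPKM with ivermectin, and 50.1, 53.6 and 50.9 FPKM with importazole. The compounds lay on opposite sides of vehicle. Tmem41b fell with ivermectin (-0.26, limma adjusted p = 0.0368) and was lower than with importazole (-0.48, limma adjusted p = 0.00104), while the difference of importazole from vehicle did not pass (0.22, limma adjusted p = 0.0899). The direct call held in each of the 19 other settings, and the call against vehicle ended without any library other than ivermectin 3 (limma adjusted p from 0.0526 to 0.118). A pseudogene copy, Gm6223, matches 871 bases of Tmem41b at 99.2%.

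Trp53inp2, an LC3-binding protein that promotes autophagosome formation, fell with ivermectin from 275, 269.6 and 273 FPKM to 220.5, 220.4 and 209 FPKM (-0.33, limma adjusted p = 0.00813). With importazole it was at 233, 256 and 247 FPKM, between the other groups (-0.15, limma adjusted p = 0.215). Atg9a, which brings lipid to the growing membrane, fell with ivermectin from 25.2, 25.2 and 24.7 FPKM to 18.3, 21.5 and 15.3 FPKM (-0.44, limma adjusted p = 0.0360), with a wide spread among the ivermectin libraries. That call ended without any library other than ivermectin 2 (limma adjusted p from 0.0544 to 0.107). Atg9a shares 1832 exon bases with the annotated gene Gm29253 on the same strand. Atg3, the enzyme that joins LC3 to lipid, rose from 5.51, 5.54 and 5.83 FPKM to 7.69, 7.79 and 7.27 FPKM (0.37, limma adjusted p = 0.0197), a call that ended without vehicle 1, vehicle 2, ivermectin 1 or ivermectin 2 (limma adjusted p from 0.0582 to 0.0720). Without vehicle 2 and ivermectin 3 none of these 4 calls against vehicle held (limma adjusted p = 0.103 for Tmem41b, 0.0647 for Trp53inp2, 0.155 for Atg9a and 0.103 for Atg3).

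Of 13 genes that sense nutrients on the lysosome for mTORC1, 1 rose with ivermectin (7.69%, against 4.31% of all genes called) and 3 with importazole (23.1%, against 2.26%). Fnip2, a partner of folliculin, was at 4.77, 5.08 and 5.42 FPKM in vehicle, 7.71, 8.45 and 7.64 FPKM with ivermectin, and 7.81, 8.97 and 9.28 FPKM with importazole. Both treated groups lay above vehicle, with log2 differences of 0.55 (limma adjusted p = 0.00486) and 0.67 (limma adjusted p = 0.00216), calls that held in every other setting. Short parts of Fnip2, the longest of 167 bases, match other transcripts at 95% identity or more, and the part of shared reads was not tested. Flcn, the folliculin gene, was at 13.3, 12.3 and 11.7 FPKM in vehicle, 15.9, 14.1 and 13.1 FPKM with ivermectin, and 17.9, 18.1 and 19.6 FPKM with importazole. Importazole lay above both other groups (0.54 from vehicle, limma adjusted p = 0.00694, held in every other setting), and the direct difference did not pass (-0.35, limma adjusted p = 0.0521). Rragc, a Rag GTPase that folliculin acts on, rose with importazole from 17.9, 16.3 and 16.7 FPKM to 21.5, 21.6 and 22.9 FPKM (0.36, limma adjusted p = 0.0247), a call that ended without vehicle 2, vehicle 3 or any importazole library (limma adjusted p from 0.0784 to 0.108).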

How the data were processed

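The authors deposited 1 table per library with a gene symbol and an FPKM value, per the file headers. Tools named in the submitters' processing notes are Cufflinks, STAR, Bowtie and Bowtie2, and the builds named are mm10 and GRCm38. No source used here gives the annotation, strand use or filters. FPKM is relative to all fragments mapped in a library, so a gene's value also depends on the other transcripts counted there.

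The members and gene lists were chosen with earlier results of these data known. Values of 48 symbols listed more than once, 0 of them members, were summed. The 11337 genes that reached 1 FPKM in 3 or more libraries were analysed as log2(FPKM + 1). All 9 libraries entered 1 limma 3.58.1 model with no term besides group (R 4.3.3, trend and robust moderation). The fit was also run on simulated data, whose outcome is not given here, so it bears on no result above. A Benjamini-Hochberg adjusted p under 0.05 was called. Values per library are given for called members and the most abundant member of each role, and from the other lists the called genes, up to 4 a list, are named, and 1 gene of these lists is not reported here. Other members were named after their values were seen, to describe their role. Locations and exon overlaps came from GENCODE M21 on GRCm38, copies from blastn 2.17.0 (at least 150 bases at 95% identity), promoters from RefSeq GRCm38.p6.

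The 19 alternatives are other pseudocounts (0.1 and 0.5), other filters (none, or 5 FPKM), quantile normalization, median-of-ratios scaling, only the 6 libraries compared, a replicate block, each library left out, both libraries that list Yam1 at 0 left out, and adjusted p under 0.01. Summing Cd63 with Cd63-ps, and the non-overlap counts under other scalings and libraries, were added after the data were seen.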

Additional observations from a re-analysis of the deposited data

How the results depend on the processing

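No called result changed direction. With ivermectin, the count of 2 members called became 0 with no filter, in a fit to only the 6 libraries compared, without both libraries that list Yam1 at 0 and at adjusted p under 0.01, and 0 to 1 when a library was left out (0 without vehicle 1 or vehicle 3). It rose to 3, with Neu1 added, under quantile and under median-of-ratios scaling. With importazole, the count of 3 became 1 with no filter, after quantile normalization, without both libraries that list Yam1 at 0 and at adjusted p under 0.01, and 1 to 4 when a library was left out (1 without vehicle 2, vehicle 3, ivermectin 2 or any importazole library). The causes of these changes in the counts were not tested. In the direct comparison the count was 0 in each setting. The median log2 difference of the members with importazole, 0.15, was 0.0953 after quantile normalization, 0.105 after median-of-ratios scaling, and 0.110 to 0.179 when a library was left out, lowest without importazole 2. Between the compounds the median, -0.08, was -0.0236 and -0.0480 under those scalings and -0.0936 to -0.0496 when a library was left out, closest to 0 without ivermectin 1. With ivermectin the median stayed at 0.0359 to 0.0625 when a library was left out. Members whose groups do not overlap fell from 22 to 13 and 14 (importazole above vehicle) and from 14 to 5 and 7 (ivermectin below importazole) under quantile and median-of-ratios scaling. The shares of all genes went from 16.5% to 11.1% and 11.5%, and from 16.1% to 12% and 12.5%, in the same order. Ctsl with importazole passed with a filter at 5 FPKM (adjusted p = 0.0483) and without ivermectin 3 (0.0425, limma).

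No pairing of the libraries by replicate number was evident in their values. With 3 libraries in a group this check is weak, so it cannot show that there was no pairing. Deviations of same-numbered libraries correlated at -0.21 to 0.14, over 0.1 in 1 of 9 pairs, and 3 of 9 libraries correlated best with their own number. Differently numbered libraries of different groups correlated at -0.22 to 0.31. The highest value was that of vehicle 2 with ivermectin 3, both of which list Yam1 at 0. With the replicate number as a block, 1 member was called with ivermectin (Ctsl), 1 with importazole (Cd63) and 0 in the direct comparison. FPKM gives no read depth, so counting error could not be set apart from the spread between libraries.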
